A study of Danio rerio with 17 samples.

Results

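The comparison set 5 libraries of cells sorted as positive for a mural reporter against 6 libraries of negative cells, with both mural reporter lines pooled and a single sort effect fitted across them. These are 11 of the 17 libraries of a study in which cells were sorted by fluorescence from dissociated zebrafish embryos and profiled by RNA sequencing, and they were taken from the sample titles. Positive cells of the acta2 line, Tg(acta2:egfp), gave 3 libraries, and the second line, acta2/foxc1b or Tg(acta2:mcherry);(foxc1b:egfp), gave 2 positive libraries. They were set against 3 libraries of acta2 negative cells and 3 of acta2/foxc1b negative cells. All embryos carried their reporters and were at 4 days post fertilization. A fluorescent protein under the acta2 promoter is in both lines, as green in the first and as red in the second, where the green reports foxc1b. In the acta2/foxc1b line the gated colors are not stated. All 11 libraries carry the tissue label of embryonic vascular smooth muscle, while the negative libraries are labelled as non-mural cells. Smooth muscle contractile genes were high in all 5 positive libraries, but in the 2 acta2/foxc1b positive libraries skeletal muscle genes took about as many reads. Their summed normalized counts there were 394700 and 773426, beside 384173 and 773186 for smooth muscle contractile genes. The positive cells are therefore named by their sort, and not as mural cells alone. Endothelial and non-endothelial libraries of a kdrl line were not used here.

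Mural cells are the smooth muscle cells and pericytes that wrap blood vessels. Smooth muscle cells contract when calcium activates myosin light chain kinase, relax when nitric oxide raises cyclic GMP, and deposit the elastic matrix of the vessel wall. The serum response factor coactivator myocardin drives many of their contractile genes, and Notch and PDGF signals from endothelium recruit them. The gene acta2 encodes smooth muscle actin, and its promoter is also used by visceral smooth muscle, so a cell sorted on it need not come from a vessel. The forkhead gene foxc1b is used in head mesenchyme, from which many mural cells of the head arise.

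Recovered reads per library ran from 20304807 to 33526582, and 23590 to 27679 genes had a read. Values are normalized read counts, the reads of a gene divided by a size factor of its library. Differences are on the scale of log2(normalized read count + 1), which understates those of low genes. Of 30220 genes, 20884 reached 10 in at least 5 libraries and were tested by limma. A gene was called where its Benjamini-Hochberg adjusted p was under 0.05 and its difference had the same sign in each line, and "rose" and "fell" are used of called genes, as positive against negative. A pair of libraries stood apart. Acta2/foxc1b negative replicate 2 correlated with its replicates at a mean r of 0.714 across genes, against 0.828 to 0.926 for the other 10 libraries. Its summed epidermis genes reached 4574632, against 94445 to 447729 in the other negative libraries. Acta2 positive replicate 2 held 26975 summed liver, gut and pancreas counts, against 2422 and 4671 in the other acta2 positive libraries. The labels do not tie replicates to separate clutches, and p-values measure the spread between these libraries, which may be technical. In bulk libraries of sorted cells, fewer cells of a type and less RNA per cell cannot be told apart.

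Smooth muscle genes led the common profile of the positive cells, and genes of retina, lens, glia and blood led that of the negative cells. The reporter gene itself was followed first, as a check on the sort, because its promoter drove a fluorescent protein in both lines. Its separation was built into the sort of the acta2 line, and the gated colors of the other line are not stated. Transcripts of acta2 had 29672, 16196, 25679, 37792 and 44413 normalized read counts in the positive libraries, where the first 3 values are acta2 replicates 1 to 3 and the last 2 are acta2/foxc1b replicates 1 and 2. The 6 negative libraries had 45.7, 122 and 147 as lowest, median and highest, and the values of all other genes are given in this order. The groups did not overlap, and acta2 had the smallest adjusted p of any gene (log2 fold change 8.16 ± 0.37, adjusted p = 2.74e-07, SE after ±, n = 5 and 6; limma, two-sided). Its difference was 7.46 in the acta2 line and 9.02 in the acta2/foxc1b line.

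In all, 2059 genes were called (9.86% of those tested). The same-sign condition removed 0 genes, so the calls are those by adjusted p alone. Of these, 1043 rose (4.99%) and 1016 fell (4.86%), the shares against which the count of each list is set. An unadjusted p under 0.05 was found for 5223 genes. In each line separately the called-higher genes had a median difference of 1.61 in the acta2 line and 2.18 in the acta2/foxc1b line, and 778 of them (74.6%) were larger in the acta2/foxc1b line. The called-lower genes had medians of -2.77 in the acta2 line and -3.29 in the acta2/foxc1b line. Over all genes tested the medians were -0.07 in the acta2 line and -0.10 in the acta2/foxc1b line. Genes whose positive and negative libraries did not overlap in either line, in the same direction, numbered 2449 (11.7%). Of them, 1377 were higher (6.59%) and 1072 lower (5.13%), and they held 885 of the 1043 genes that rose and 750 of the 1016 that fell. A difference of at least 1 in each line was reached by 883 of the genes that rose and 963 of those that fell. For a difference of at least 3 in each line the counts were 52 and 331. Counts moved by over 1.5 times without 1 library. Without acta2/foxc1b positive replicate 2 there were 546 higher and 560 lower, without acta2/foxc1b negative replicate 2 there were 1646 and 1908, and without acta2 positive replicate 3 there were 689 and 641. Without acta2 negative replicate 1 the lower count was 659, without acta2 negative replicate 2 it was 581, and without acta2 negative replicate 3 the counts were 666 higher and 594 lower.

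**Figure D1:**
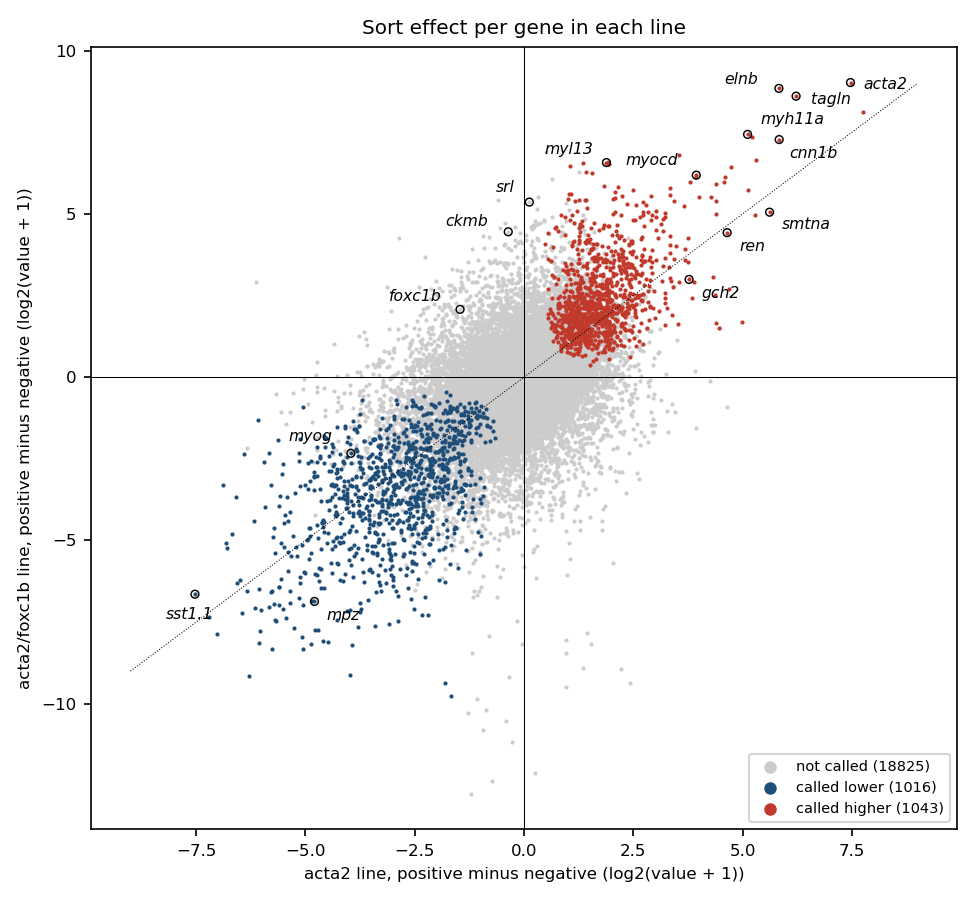
Each point is 1 of 20884 genes, placed by its positive minus negative difference in log2(normalized read count + 1) in the acta2 line (x axis, 3 and 3 libraries) and in the acta2/foxc1b line (y axis, 2 and 3 libraries), with the 1043 genes called higher and the 1016 called lower in color. By the calling rule, called genes lie in the quadrants where both lines have the same sign. Of these, acta2, tagln and elnb are at the upper right and sst1.1 is at the lower left.

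Either line was also read through the other, whose libraries took no part in the choice. The acta2 line alone called 670 genes higher (3.26%) and 771 lower (3.75%) of 20582 tested. The shares of all genes set beside them are over the 20884 genes of the common fit, another set. In the acta2/foxc1b libraries 632 of the 670 (94.3%) were also higher by sign, where 46.4% of all genes were, and 489 (73.0%) were higher without overlap, where 15% of all genes were. Of the 771 lower genes, 722 (93.6%) were lower by sign in the acta2/foxc1b libraries, against 53.6% of all genes, and 379 (49.2%) without overlap, against 14.7%. The acta2/foxc1b line alone, with 2 positive libraries, called 6 genes higher (0.0271%) and 0 lower of 22116, and all 6 were higher without overlap in the acta2 line. Calls of the acta2 line alone numbered 774, 285 and 395 without its negative replicates 1, 2 and 3 and 623 without its positive replicate 3. Those of the acta2/foxc1b line numbered 774 without its negative replicate 2 and 0 without its negative replicate 1 or either positive library. The line by sort interaction, the sort effect of the acta2/foxc1b line minus that of the acta2 line, was called for 0 of 20884 genes by limma (0.0%; smallest adjusted p = 0.138), with 1047 at an unadjusted p under 0.05. It was called for 0 genes by edgeR and 231 by DESeq2. Fitted without acta2/foxc1b negative replicate 2, it was called for 52 genes, 48 of them larger in the acta2/foxc1b line. The lines' own differences are therefore given side by side for many of the lists and for some of the genes named below. Other fold changes are those of the common fit only.

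The contractile apparatus formed the top of the profile. Of 42 tested smooth muscle contractile genes, 27 rose (64.3%, against 4.99% of all genes) and 1 fell (2.38%, against 4.86%). Their median log2 fold change was 2.63 (2.0 in the acta2 line and 3.55 in the acta2/foxc1b line), against -0.09 over all genes. Transgelin, the actin-bundling product of tagln, marks differentiating smooth muscle, and tagln had 2144, 1045, 1050.1, 4372 and 4464 normalized read counts in positive, against 7.6, 11.5 and 40.9 in negative libraries (log2 fold change 7.28 ± 0.54, adjusted p = 4.04e-05). The calponin gene cnn1b, whose product restrains actomyosin, had 4896, 1993, 3209, 5248 and 11121 in positive, against 39.5, 52.9 and 74.6 in negative libraries (log2 fold change 6.47 ± 0.39, adjusted p = 4.03e-06). Smooth muscle myosin heavy chain, encoded by myh11a, is the motor that pulls on those filaments. The myh11a transcript had 25603, 12752, 10100.1, 17169 and 68995 normalized read counts in positive, against 42.3, 329 and 739 in negative libraries (log2 fold change 6.14 ± 0.71, adjusted p = 0.000489). The lowest positive library of each of these genes lay above the highest negative one. The genes of largest fold change were named only where libraries did not overlap within either line. For such genes, here and below, the lack of overlap is therefore no result.

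Light chains, the kinase that phosphorylates them and the filament regulators rose with the heavy chain. The regulatory light chain gene myl9a had 18249, 8011, 10396, 13381 and 46063 normalized read counts in positive, against 377, 474 and 609.6 in negative libraries (log2 fold change 5.06 ± 0.4, adjusted p = 4.17e-05). The essential light chain gene myl6 had a log2 fold change of 3.82 (adjusted p = 0.000182). The myosin light chain kinase genes mylkb and mylka had 4.77 (adjusted p = 0.000524) and 3.83 (adjusted p = 0.00171), and ppp1r12a, the targeting subunit of the opposing phosphatase, had 1.56 (adjusted p = 0.0116). Both arms of light chain phosphorylation were thus among the genes that rose. Leiomodin, which nucleates actin filaments, is encoded by lmod1b, with 1049, 1029.6, 809, 665 and 1685 normalized read counts in positive, against 3.25, 16.5 and 43.7 in negative libraries (log2 fold change 5.9 ± 0.52, adjusted p = 0.000103). The smoothelin gene smtna had 491, 152, 259, 542 and 935 normalized read counts in positive, against 2.33, 9.07 and 44.1 in negative libraries (log2 fold change 5.36 ± 0.52, adjusted p = 0.000168). Desmin, the intermediate filament that ties the contractile units together, is encoded by desmb, which had 955, 338, 425, 1547 and 1146 in positive, against 8.13, 16.8 and 31.7 in negative libraries (log2 fold change 5.48 ± 0.51, adjusted p = 0.000157). Neither smtna nor desmb overlapped between the groups, a separation within lines that the naming rule asked of the genes of largest fold change.

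Thin filament and anchoring genes followed. Tropomyosin genes rose, with log2 fold changes of 4.84 for tpm4b (adjusted p = 8.57e-05), 3.43 for tpm2 (adjusted p = 0.00127) and 3.27 for tpm1 (adjusted p = 0.000157). The actin crosslinker genes actn1 and flna had 2.84 (adjusted p = 0.000541) and 2.7 (adjusted p = 0.00415), and the caldesmon gene cald1a had 2.31 (adjusted p = 0.0116). Its paralog cald1b had 2.56 ± 0.99 and did not pass (adjusted p = 0.124). Single libraries decided csrp1b, a LIM protein of actin bundles, whose 3.59 (adjusted p = 0.0159) was not called without acta2/foxc1b positive replicate 1 or acta2/foxc1b positive replicate 2 (highest adjusted p = 0.0625), whereas its paralog csrp1a had 2.9 (adjusted p = 0.00127). The member that fell was myh9a, a nonmuscle myosin heavy chain gene (log2 fold change -2.03 ± 0.57, adjusted p = 0.0404), and it was not called without any of 7 of the 11 libraries, each left out alone (highest adjusted p = 0.135). The coactivator gene myocd, itself a transcription factor partner of these genes, had 332, 364, 774, 1240.1 and 936 normalized read counts in positive, against 1.63, 35 and 167 in negative libraries (log2 fold change 4.94 ± 1.02, adjusted p = 0.00987).

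Genes of focal adhesions, which couple the contractile filaments to the matrix, moved with the contractile genes. Of 44 tested LIM-domain and adhesion genes, 30 rose (68.2%, against 4.99% of all genes) and 0 fell. Their median was 1.87 (1.49 in the acta2 line and 2.48 in the acta2/foxc1b line). The LIM-domain gene fhl2a had 9806, 4498, 9066, 6678 and 4477 normalized read counts in positive, against 67.3, 128 and 505 in negative libraries (log2 fold change 5.39 ± 0.47, adjusted p = 9.93e-05). Its relative fhl1a had a log2 fold change of 3.76 (adjusted p = 0.000869), and pdlim3a, which binds alpha-actinin, had 3.21 (adjusted p = 0.00327). The integrin-linked kinase complex was represented by each of its partners, parvab at 3.21 (adjusted p = 0.000639), lims1 at 2.22 (adjusted p = 0.00858) and ilk itself at 1.85 (adjusted p = 0.00194). The integrin beta 1 gene itgb1b had 8696, 4001, 2681, 5193 and 6418 normalized read counts in positive, against 315, 841 and 1077 in negative libraries (log2 fold change 2.94 ± 0.37, adjusted p = 0.000701). Alpha subunits that pair with it rose as well, with 2.22 for itga9 (adjusted p = 0.00751), 2.1 for itga5, the fibronectin receptor (adjusted p = 0.000869), and 1.87 for itga8 (adjusted p = 0.00127). Tensin, zyxin, talin and LPP sit on the cytoplasmic side of the same adhesions. Their genes tns1b (2.87, adjusted p = 0.00143), zyx (2.05, adjusted p = 0.0032), tln1 (1.62, adjusted p = 0.00361) and lpp (2.33, adjusted p = 0.00401) all rose. Genes at 1.85 to 2.1, such as ilk, itga8 and itga5, had small standard errors of 0.29, 0.27 and 0.28. The gene pgm5, chosen after its values were seen and known for an adhesion protein of muscle, had 57.9, 84.8, 127, 161 and 277 in positive, against 0, 12.8 and 22.4 in negative libraries (log2 fold change 3.72 ± 0.8, adjusted p = 0.0122). It was not called without acta2/foxc1b positive replicate 2 (adjusted p = 0.0504).

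**Figure D2:**
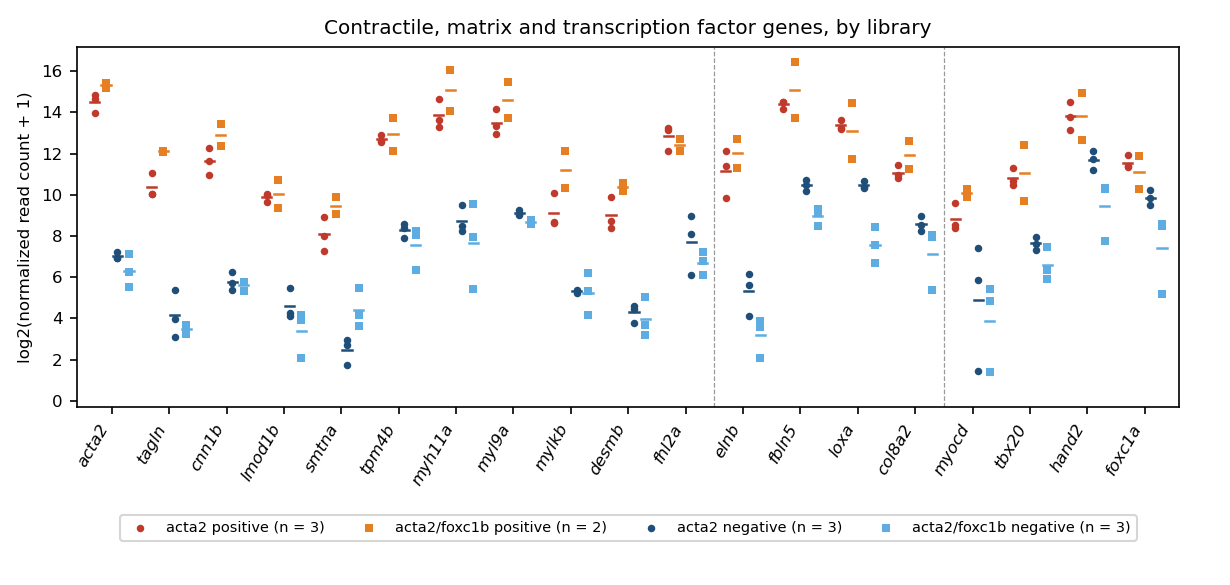
Contractile, matrix and transcription factor genes are shown by library as log2(normalized read count + 1) on the y axis, with positive libraries left of negative libraries in each gene, lines told apart by marker, and bars at the group means. The positive libraries of acta2, tagln, cnn1b, myh11a and elnb lie above all negative libraries of the same gene. The genes of largest fold change were named only where libraries did not overlap within either line.

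Matrix genes rose in both the elastic fiber list and the list of other matrix genes. Of 29 tested elastic fiber and crosslinking genes, 14 rose (48.3%, against 4.99% of all genes) and 0 fell. Their median was 1.77 (1.3 in the acta2 line and 2.83 in the acta2/foxc1b line). Elastin is the stretch protein of arteries, and the zebrafish gene elnb had 934, 2688, 4540.2, 2531 and 6753 normalized read counts in positive, against 3.25, 15 and 70.7 in negative libraries (log2 fold change 7.17 ± 0.69, adjusted p = 0.000157). Its paralog elna had 644, 765, 1565, 707 and 844 in positive, against 29.3, 230.2 and 456 in negative libraries (log2 fold change 2.27 ± 0.5, adjusted p = 0.0134). In turn, elna was not called without acta2/foxc1b positive replicate 2 (adjusted p = 0.0547). The elastin genes thus differed in size of effect by several log2 units. Fibulin 5 organizes elastin on microfibrils, and fbln5 had 18133, 23179.6, 23596, 13741 and 87966 normalized read counts in positive, against 351, 901 and 1674 in negative libraries (log2 fold change 4.91 ± 0.51, adjusted p = 0.000257). Lysyl oxidase, which crosslinks elastin and collagen, is encoded by loxa, with 12807, 9747, 9447, 3415 and 22765 in positive, against 102, 824 and 1617 in negative libraries (log2 fold change 4.07 ± 0.58, adjusted p = 0.00127). Microfibril genes were fbn1 at 2.87 (adjusted p = 0.00353), fbn2b at 1.78 (adjusted p = 0.0148) and mfap5 at 3.14 (adjusted p = 0.00343). The latent TGF-beta binding gene ltbp3 had 2.62 (adjusted p = 0.00609) and emilin2a 2.72 (adjusted p = 0.00273). The related emilin3a had 3.49 ± 1.29 and did not pass (adjusted p = 0.11), with 1260.4, 834, 1142, 1279 and 18335 in positive, against 1.63, 421 and 503 in negative libraries.

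Of 71 other extracellular matrix genes, 26 rose (36.6%, against 4.99% of all genes) and 0 fell. Their median was 1.32 (0.97 in the acta2 line and 1.46 in the acta2/foxc1b line), and 16 rose without acta2/foxc1b positive replicate 1. Proteoglycans were led by the aggrecan gene acana, which had 9661, 7487, 10281, 7359.6 and 55591 normalized read counts in positive, against 71.6, 793 and 1288 in negative libraries (log2 fold change 4.34 ± 0.75, adjusted p = 0.0036). The second aggrecan gene acanb had 3.16 (adjusted p = 0.00578), the versican gene vcanb 2.26 (adjusted p = 0.00508) and the biglycan gene bgnb 2.21 (adjusted p = 0.00952). Fibronectin gene fn1b had 28482, 25166, 29704, 35492 and 94733 in positive, against 3325, 5378 and 13562 in negative libraries (log2 fold change 2.78 ± 0.4, adjusted p = 0.00143). Basement membrane genes rose, with 2.65 for col4a1 (adjusted p = 0.00212) and 2.01 for col4a2 (adjusted p = 0.00532), as did the vascular collagen gene col8a2 (3.52, adjusted p = 0.00257) and the thrombospondin gene thbs2a (2.64, adjusted p = 0.005). The matricellular genes cyr61 and ctgfa had 1.92 (adjusted p = 0.00324) and 1.85 (adjusted p = 0.00342). The fibrillar collagen gene col1a1a did not pass, at 1.5 ± 0.61 (adjusted p = 0.147). It had 949839, 857809, 811039, 605259 and 104187 in positive, against 75461, 209259 and 312161 in negative libraries, and acta2/foxc1b positive replicate 2 lay within the negative range. Its acta2 positive libraries all lay above the negative range. A locus that the authors' table names as a collagen alpha-6(VI) chain, LOC100535278, was chosen after its values were seen. It had 3492, 1213, 1489.6, 10829 and 5887 in positive, against 26.4, 47.6 and 66.4 in negative libraries (log2 fold change 6.17 ± 0.48, adjusted p = 4.17e-05).

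Transcription factor genes were described by 2 lists. Of 50 tested smooth muscle, cardiac and visceral factors, 14 rose and 0 fell, with a median of 0.65 (0.29 in the acta2 line and 1.4 in the acta2/foxc1b line). The count was 9 without acta2/foxc1b negative replicate 1 and 5 without acta2/foxc1b positive replicate 2. The T-box gene tbx20, a factor of heart and outflow mesoderm, had 1426, 2496, 1653, 833 and 5447 normalized read counts in positive, against 58.5, 169 and 248 in negative libraries (log2 fold change 3.76 ± 0.49, adjusted p = 0.000869). The basic helix-loop-helix gene hand2, used in heart and pharyngeal arches, had 23319, 14248, 9019.6, 6540.0 and 31619.9 in positive, against 215, 1841 and 4473 in negative libraries (log2 fold change 3.12 ± 0.61, adjusted p = 0.00759). Both genes were free of overlap. The epicardial and mesenchymal genes tcf21 and tbx18 had log2 fold changes of 2.68 (adjusted p = 0.00281) and 1.99 (adjusted p = 0.00728). Factors of visceral mesoderm were among those that rose. The forkhead gene foxf1, a gene of gut mesenchyme, had 10637, 4784, 3215, 25323 and 35571 in positive, against 533, 1819.6 and 3792 in negative libraries (log2 fold change 2.7 ± 0.67, adjusted p = 0.0239). Its difference was 0.93 in the acta2 line and 4.91 in the acta2/foxc1b line, acta2 positive replicate 3 lay within the negative range, and the gene was not called without acta2 positive replicate 1 or acta2/foxc1b positive replicate 1 or acta2/foxc1b positive replicate 2 (highest adjusted p = 0.0897). The homeobox gene nkx3.3 had 2.52 (adjusted p = 0.0139; not called without acta2/foxc1b positive replicate 2, adjusted p = 0.0559) and mef2aa, a partner of myogenic factors, 1.15 (adjusted p = 0.0149; not called without acta2/foxc1b positive replicate 2, adjusted p = 0.053). Whether visceral smooth muscle in the sort took part in these differences was not tested.

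Of 51 head mesenchyme and neural crest factors, 7 rose (13.7%, against 4.99% of all genes) and 0 fell. Without acta2/foxc1b negative replicate 2, 13 rose and 3 fell. The list had a median of 0.51 (0.65 in the acta2 line and 0.72 in the acta2/foxc1b line). The median was 0.3 without acta2/foxc1b positive replicate 1 and 0.18 without both libraries that stood apart. The homeobox gene msx3 had 4909, 4832, 3293, 2180.0 and 6127 normalized read counts in positive, against 177, 734 and 1012 in negative libraries (log2 fold change 2.71 ± 0.41, adjusted p = 0.00183). Others were osr1 (2.43, adjusted p = 0.00292), pitx1 (1.77, adjusted p = 0.00276), msx1b (1.74, adjusted p = 0.005) and lmx1bb (1.83, adjusted p = 0.00857). The forkhead gene foxc1a, a factor of head mesenchyme, had 3923, 2653, 2643, 1238 and 3828 in positive, against 35.8, 550.1 and 1187 in negative libraries (log2 fold change 2.58 ± 0.62, adjusted p = 0.0206). It was not called without acta2/foxc1b positive replicate 2 (adjusted p = 0.0779). Its paralog foxc1b, the reporter gene of the second line, did not pass in the common fit. It had 2199, 905, 693, 744 and 1977 in positive, against 215, 1035 and 5294 in negative libraries (log2 fold change 0.11 ± 0.64, adjusted p = 0.94). Its difference was -1.46 in the acta2 line and 2.07 in the acta2/foxc1b line, opposite in sign, and all 5 positive libraries lay within the range of the negative ones. The pooled sign turned to -0.07 without acta2/foxc1b negative replicate 1, to -0.13 without its replicate 3, to -0.05 without acta2/foxc1b positive replicate 1 and to -0.52 without its replicate 2. The gene tlx1, a homeobox factor chosen after its values were seen, had 203, 221, 155, 68.6 and 555 in positive, against 0, 15.3 and 34.6 in negative libraries (log2 fold change 3.97 ± 0.84, adjusted p = 0.0108). The RNA-binding protein genes rbpms2a and rbpms2b, also chosen afterwards and known from heart and visceral muscle, had 3.84 (adjusted p = 0.000157) and 3.07 (adjusted p = 0.00939).

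Receptors and enzymes that set vessel tone were a further common feature. Of 46 tested vasoactive receptor and cyclic nucleotide genes, 22 rose (47.8%, against 4.99% of all genes) and 1 fell (2.17%, against 4.86%). Their median was 1.37 (1.02 in the acta2 line and 1.55 in the acta2/foxc1b line), and 13 rose without acta2/foxc1b positive replicate 2. Genes for the receptor and for the effector of nitric oxide rose together. Soluble guanylate cyclase, the nitric oxide receptor, is a dimer of the products of gucy1a3 and gucy1b3. The gucy1a3 transcript had 3035, 1417, 1382, 1814 and 4361 normalized read counts in positive, against 6.51, 80.8 and 120.5 in negative libraries (log2 fold change 5.2 ± 0.67, adjusted p = 0.000838). For gucy1b3 the values were 377, 410.2, 377, 492 and 1699.5 in positive, against 32.5, 57.6 and 109 in negative libraries (log2 fold change 3.24 ± 0.44, adjusted p = 0.00112). Downstream, the cyclic GMP-dependent kinase gene prkg1b had 1733, 836, 1059.5, 1596 and 4363 in positive, against 40.7, 123 and 322 in negative libraries (log2 fold change 3.75 ± 0.53, adjusted p = 0.00127). The kinase substrate gene mrvi1, chosen after its values were seen, had 3.57 (adjusted p = 0.00454). Phosphodiesterases that end the signal rose also, pde5ab at 2.91 (adjusted p = 0.000489) and pde3a at 2.02 (adjusted p = 0.0152), though pde3a was not called without acta2/foxc1b positive replicate 2 (adjusted p = 0.0617). Positive and negative libraries of gucy1a3, gucy1b3, prkg1b and pde5ab did not overlap.

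Receptors for vasoactive peptides and lipids also rose. The angiotensin receptor gene agtr1b had 1085, 679, 355, 552 and 396 normalized read counts in positive, against 28.6, 67.2 and 124 in negative libraries (log2 fold change 3.07 ± 0.43, adjusted p = 0.00121). Its difference was 3.16 in the acta2 line and 2.95 in the acta2/foxc1b line. For agtr1a the values were 87.6, 99.9, 57.7, 90.9 and 7.78 in positive, against 0, 2.63 and 11 in negative libraries (log2 fold change 3.76 ± 0.79, adjusted p = 0.0106), where acta2/foxc1b positive replicate 2 fell within the negative range. The third angiotensin receptor gene, agtr2, had 1.4 (adjusted p = 0.004). Renin, which starts the angiotensin cascade and in fish and mammals is made by kidney mural cells, is encoded by ren, chosen after its values were seen. The ren transcript had 53.2, 156, 113, 142 and 17.8 in positive, against 0, 2.78 and 13.2 in negative libraries (log2 fold change 4.54 ± 0.82, adjusted p = 0.00467). The lowest positive library of ren lay close to the highest negative one. Sphingosine phosphate receptor genes s1pr3a and s1pr5a had 3.26 (adjusted p = 0.000869) and 3.19 (adjusted p = 0.00173), the endothelin receptor gene ednraa 2.67 (adjusted p = 0.0108) and the prostaglandin receptor gene ptger3 2.55 (adjusted p = 0.00664). The alpha-adrenergic receptor genes moved in opposite directions, adra1d at 2.51 (adjusted p = 0.0164) and adra1ab at -3.7 (adjusted p = 0.0208), and adra1ab had 0, 5.81, 2.1, 8.91 and 0 in positive, against 6.51, 36.8 and 135 in negative libraries. Without acta2/foxc1b positive replicate 2 the adjusted p was 0.0633 for adra1d and 0.0719 for adra1ab, and neither was called. Without any of 5 negative libraries adra1ab was below the filter on low values and was not tested. The bradykinin receptor gene bdkrb1, chosen afterwards, had 4.66 (adjusted p = 0.005), and rock2a, a kinase that sensitizes the filaments to calcium, had 1.54 (adjusted p = 0.0147; not called without acta2/foxc1b positive replicate 2, adjusted p = 0.0566).

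Ion channel and calcium handling genes gave 11 of 41 that rose (26.8%, against 4.99% of all genes) and 1 that fell (2.44%, against 4.86%). Their median was 0.93 (0.78 in the acta2 line and 1.04 in the acta2/foxc1b line). In this list, 6 rose without acta2/foxc1b positive replicate 2 and 3 fell without acta2/foxc1b negative replicate 2. The receptor-operated cation channel gene trpc6a had 1065, 876, 1908, 1398 and 3631 normalized read counts in positive, against 6.51, 50.3 and 128 in negative libraries (log2 fold change 4.99 ± 0.65, adjusted p = 0.000869). Its difference was 3.54 in the acta2 line and 6.81 in the acta2/foxc1b line. The sodium-calcium exchanger gene slc8a1a had 128, 215, 331, 383 and 685 in positive, against 13, 17 and 54.6 in negative libraries (log2 fold change 3.87 ± 0.54, adjusted p = 0.00117). Phospholamban, the brake on the calcium pump of the sarcoplasmic reticulum, is encoded by pln, which had 580.2, 277, 351, 328 and 965 in positive, against 21.1, 50.3 and 72.5 in negative libraries (log2 fold change 3.27 ± 0.45, adjusted p = 0.00115). None of these overlapped between groups. The inositol trisphosphate receptor genes divided, itpr1a rising by 1.86 (adjusted p = 0.0111) and itpr3 falling by 3.08 (adjusted p = 0.00343), with itpr3 at 93.8, 228, 115, 102 and 30 in positive, against 473, 683 and 2119 in negative libraries. The voltage-gated calcium channel gene cacna1c had 2.67 ± 0.83 and did not pass (adjusted p = 0.0618), although its positive libraries, at 1112, 1695, 1363, 2147 and 11405, all lay above the negative ones, at 30.9, 492 and 901. The potassium channel subunit gene kcnab1a had 2.3 (adjusted p = 0.0143; not called without acta2/foxc1b positive replicate 2, adjusted p = 0.0521).

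**Figure D3:**
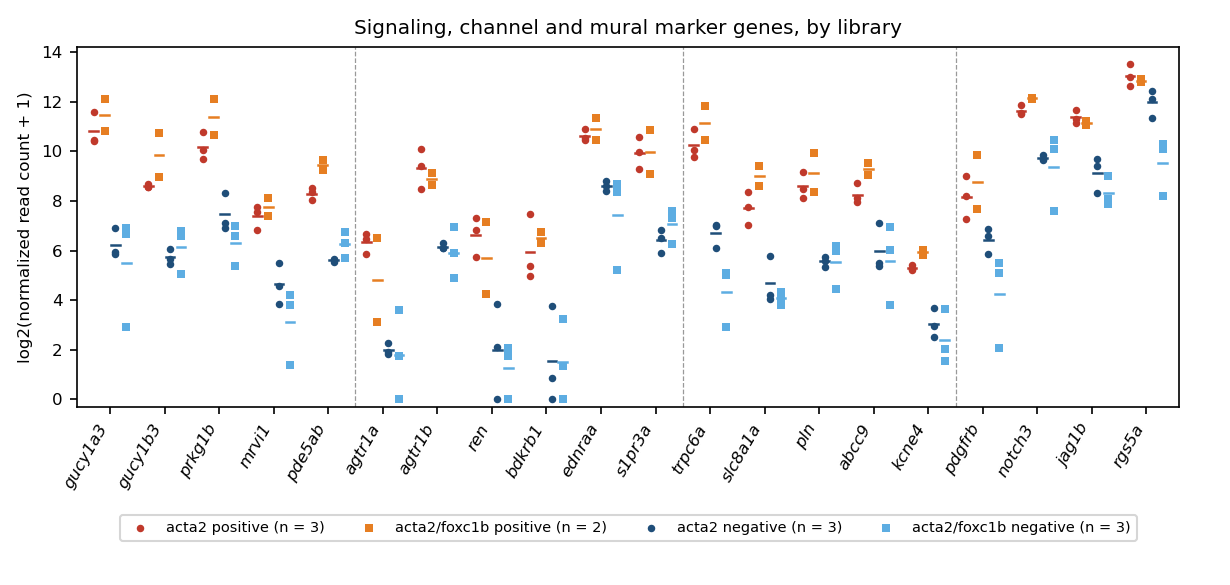
Nitric oxide pathway, vasoactive receptor, channel and mural marker genes are shown by library as log2(normalized read count + 1) on the y axis, positive libraries left of negative libraries in each gene, lines told apart by marker, bars at the group means. Positive libraries of gucy1a3, prkg1b and trpc6a lie above all negative libraries, and agtr1a has 1 positive library within the negative range.

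Markers used for pericytes and for mural cells in general had a lower median than the contractile genes. Of 35 tested, 15 rose (42.9%, against 4.99% of all genes) and 0 fell. Their median was 1.28 (0.98 in the acta2 line and 1.62 in the acta2/foxc1b line), and 7 rose without acta2/foxc1b positive replicate 2. The small GTPase gene rasl12 had 1697, 2013, 2453, 1146 and 3654 normalized read counts in positive, against 26, 40.7 and 133 in negative libraries (log2 fold change 5.28 ± 0.43, adjusted p = 5.16e-05). The PDGF receptor gene pdgfrb, needed to recruit mural cells, had 152, 294, 516, 909.6 and 202 in positive, against 3.25, 50.3 and 117 in negative libraries (log2 fold change 2.96 ± 0.76, adjusted p = 0.0282). Its difference was 1.72 in the acta2 line and 4.52 in the acta2/foxc1b line, and it was not called without any of 4 of the 11 libraries, each left out alone (highest adjusted p = 0.0808). Its positive libraries nonetheless all lay above the negative ones. Subunits of the vascular ATP-sensitive and voltage-gated potassium channels, which mark pericytes in mammals, rose. The abcc9 gene had 275, 245, 419.6, 526 and 730.3 in positive, against 13, 54.1 and 136 in negative libraries (log2 fold change 2.9 ± 0.59, adjusted p = 0.00857), and kcne4 had 2.82 (adjusted p = 0.00964). The endosialin gene cd248a had 3.13 (adjusted p = 0.0177; not called without acta2/foxc1b positive replicate 2, adjusted p = 0.0728) and mcamb, a cell adhesion gene, 2.72 (adjusted p = 0.00173). The G protein regulator gene rgs5a had 8081, 6265, 11785, 7139.5 and 7608 in positive, against 294, 1925 and 5553 in negative libraries (log2 fold change 2.07 ± 0.5, adjusted p = 0.0211). It was not called without acta2/foxc1b positive replicate 1 or acta2/foxc1b positive replicate 2 (highest adjusted p = 0.0797). The proteoglycan gene cspg4, which encodes NG2, did not pass at 2.46 ± 0.84 (adjusted p = 0.0835), although its positive libraries, at 507, 536, 933, 1047 and 1456, all lay above the negative ones, at 6.51, 238 and 390.4.

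Notch signaling, through which endothelium instructs its mural coat, had 4 of 32 genes that rose and 3 that fell. These were 12.5% and 9.4%, against 4.99% and 4.86% of all genes. The median was -0.24, with -0.15 without acta2 negative replicate 3 and -0.37 without acta2/foxc1b negative replicate 2. With 1 library left out, 2 to 5 rose and 0 to 9 fell, the highest count that fell being without acta2/foxc1b negative replicate 2. The mural receptor gene notch3 had 3018, 2862, 3677, 4457 and 4562 normalized read counts in positive, against 192, 869.9 and 1384 in negative libraries (log2 fold change 2.28 ± 0.45, adjusted p = 0.0072). The ligand gene jag1b, which mural cells also make, had 2550.5, 2265, 3216, 2156 and 2392 in positive, against 236, 415 and 824 in negative libraries (log2 fold change 2.5 ± 0.33, adjusted p = 0.000869). Both were free of overlap. The target gene hey2 had 1.28 (adjusted p = 0.0312) and the ligand gene dll4 1.35 (adjusted p = 0.0393). However, hey2 was not called without any of 6 of the 11 libraries, each left out alone (highest adjusted p = 0.0954). Likewise, dll4 was not called without any of 9 of the 11 libraries, each left out alone (highest adjusted p = 0.0966). Members that fell are used in neural development, and which cells held their transcripts here was not tested. The ligand gene dla had -3.7 (adjusted p = 0.0288) and was not called without any of 7 of the 11 libraries, each left out alone (highest adjusted p = 0.0957). A further ligand gene, dlb, had -3.48 (adjusted p = 0.0327) and was not called without any of 8 of the 11 libraries, each left out alone (highest adjusted p = 0.113). The target gene her15.1 had -2.32 (adjusted p = 0.041) and was not called without any of 7 of the 11 libraries, each left out alone (highest adjusted p = 0.127).

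TGF-beta and BMP genes had 18 of 58 that rose (31.0%, against 4.99% of all genes) and 0 that fell. Their median was 1.0 (0.77 in the acta2 line and 1.36 in the acta2/foxc1b line). The count was 10 without acta2 negative replicate 3 or acta2 positive replicate 1, 11 without acta2/foxc1b negative replicate 3, and 9 and 8 without acta2/foxc1b positive replicates 1 and 2. Among ligands, tgfb2 had 84.4, 357, 430.1, 1139 and 3677 normalized read counts in positive, against 28.2, 74.5 and 164 in negative libraries (log2 fold change 3.17 ± 0.66, adjusted p = 0.0099). Its difference was 2.11 in the acta2 line and 4.49 in the acta2/foxc1b line, and acta2 positive replicate 1 lay within the negative range. Others were tgfb3 at 1.61 (adjusted p = 0.0143; not called without acta2/foxc1b positive replicate 2, adjusted p = 0.052) and the activin gene inhbaa at 1.89 (adjusted p = 0.0139). Among receptors, the pseudoreceptor gene bambia, whose product blocks the signal, had 3317, 3236, 3535, 1899 and 4983 in positive, against 327, 568 and 1130.3 in negative libraries (log2 fold change 2.45 ± 0.36, adjusted p = 0.00163). The type I receptor gene acvrl1 had 1.83 (adjusted p = 0.00615). Inside the cell, the repressor gene skilb had 1.56 (adjusted p = 0.00907) and smad9 1.4 (adjusted p = 0.0121).

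Wnt genes had 11 of 52 that rose (21.2%, against 4.99% of all genes) and 3 that fell (5.77%, against 4.86%). Their median was 0.42, and 0.14 without acta2/foxc1b positive replicate 1. Only 1 fell without acta2 negative replicate 1 or 3, acta2 positive replicate 1 or acta2/foxc1b positive replicate 2. The ligand gene wnt4a had 794, 422, 544, 463 and 1029 normalized read counts in positive, against 113, 137 and 241 in negative libraries (log2 fold change 2.05 ± 0.34, adjusted p = 0.00334). Secreted inhibitors sfrp1a and sfrp1b had 2.18 (adjusted p = 0.00639) and 2.75 (adjusted p = 0.00971). The receptor genes fzd9b and ror2 had 2.0 (adjusted p = 0.00719) and 1.68 (adjusted p = 0.00869), and the feedback target axin2 1.27 (adjusted p = 0.011). The ligand genes wnt7bb (-2.83, adjusted p = 0.00609) and wnt2 (-2.36, adjusted p = 0.0273) fell, as did the inhibitor gene sfrp5 (-1.37, adjusted p = 0.0305). Of these, wnt2 was not called without any of 6 of the 11 libraries, each left out alone (highest adjusted p = 0.0952). In turn, sfrp5 was not called without any of 6 of the 11 libraries, each left out alone (highest adjusted p = 0.0961). Hedgehog genes had 2 of 18 that rose (11.1%, against 4.99% of all genes). With 1 library left out 0 to 6 rose, 6 without acta2/foxc1b negative replicate 2. The transducer gene smo had 1.42 (adjusted p = 0.05, below the threshold before rounding) and was not called without any of 9 of the 11 libraries, each left out alone (highest adjusted p = 0.138). The effector gene gli2a had 1.22 (adjusted p = 0.0239) and was not called without any of 4 of the 11 libraries, each left out alone (highest adjusted p = 0.0701). Of 50 PDGF, VEGF and FGF genes 8 rose and 3 fell (median 0.58). The count that rose was 3 without acta2 positive replicate 3 or acta2/foxc1b positive replicate 2, 4 without any acta2 negative library or acta2 positive replicate 1, and 5 without acta2/foxc1b positive replicate 1. The mesenchymal growth factor gene fgf10a had 2657, 2859.8, 2885, 1659 and 1868 in positive, against 151, 457 and 1233 in negative libraries (log2 fold change 2.2 ± 0.33, adjusted p = 0.00183). The semaphorin and VEGF coreceptor gene nrp1a had 1.68 (adjusted p = 0.00939), and angpt2b, an angiopoietin, 1.54 (adjusted p = 0.0117). Genes that fell were fgf20b at -3.85 (adjusted p = 0.00263), the chemokine receptor gene cxcr4b at -1.93 (adjusted p = 0.00454) and vegfba at -3.45 (adjusted p = 0.0181; not called without acta2/foxc1b positive replicate 2, adjusted p = 0.0644).

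Several genes outside these groups stood high by the naming rule. The gluconeogenic enzyme gene fbp2, a muscle fructose bisphosphatase, had 6579, 6313, 1286, 1912 and 35863 normalized read counts in positive, against 27.2, 194 and 468 in negative libraries (log2 fold change 5.14 ± 0.76, adjusted p = 0.00167). For fbp2 the difference was 5.29 in the acta2 line and 4.95 in the acta2/foxc1b line. The kinase gene nuak1a (log2 fold change 3.34 ± 0.4, adjusted p = 0.000541) had 3.32 in the acta2 line and 3.37 in the acta2/foxc1b line. The naming rule also took genes for being even between the lines, so closeness of such values is no result. The orphan receptor gene gpr153 had 3.65 (adjusted p = 0.025) and was not called without any of 4 of the 11 libraries, each left out alone (highest adjusted p = 0.0909). For gpr78a, also an orphan receptor gene, the value was 3.28 (adjusted p = 0.0308; not called without any of 5 of the 11 libraries, each left out alone, highest adjusted p = 0.111). The locus LOC110437921, chosen after its values were seen and with no annotated role here, had 888, 1068, 795, 135 and 5629.9 in positive, against 0, 4.65 and 7.77 in negative libraries (log2 fold change 7.92 ± 0.94, adjusted p = 0.000524). In all, 173 of the 1043 genes that rose carry clone or locus names. Without acta2/foxc1b negative replicate 2, 10 cartilage, bone and tendon genes rose. In the fit of all libraries 6 of 42 rose (14.3%, against 4.99% of all genes) and 0 fell (median 0.45). Besides acana they included the matrix gene comp (2.15, adjusted p = 0.00645), and the tendon genes tnmd (1.79, adjusted p = 0.00948) and mkxa (1.39, adjusted p = 0.0212; not called without acta2/foxc1b positive replicate 1 or acta2/foxc1b positive replicate 2, highest adjusted p = 0.0745). They also included the chondrogenic factor gene sox5 (1.6, adjusted p = 0.0036).

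Pigment cell genes had 3 of 21 that rose (14.3%, against 4.99% of all genes) and 1 that fell (4.76%, against 4.86%). Their median was -0.31, and it moved to -0.19 and -0.09 without acta2 negative replicates 1 and 2 and to -0.12 and -0.04 without acta2 positive replicates 1 and 3. The pteridine synthesis gene gch2 had 1629, 1334, 1439, 998 and 1771 normalized read counts in positive, against 52.9, 155 and 284 in negative libraries (log2 fold change 3.43 ± 0.43, adjusted p = 0.000681). The xanthophore enzyme gene aox5 had 109, 89.5, 141, 118 and 17.8 in positive, against 1.55, 5.12 and 24.4 in negative libraries (log2 fold change 3.52 ± 0.78, adjusted p = 0.014). Its difference was 4.99 in the acta2 line and 1.69 in the acta2/foxc1b line, and acta2/foxc1b positive replicate 2 lay within the negative range. The iridophore gene pnp4a had 1.92 (adjusted p = 0.028; not called without any of 7 of the 11 libraries, each left out alone, highest adjusted p = 0.078). The melanin synthesis gene dct fell (-3.64, adjusted p = 0.0352; not called without any of 7 of the 11 libraries, each left out alone, highest adjusted p = 0.111). The other 17 members tested were not called, and their signs were mixed. Among them, pax7a had -2.09 (adjusted p = 0.158) and gart -1.5 (adjusted p = 0.0984). In the other direction, mlpha had 1.56 (adjusted p = 0.0848) and ltk 1.08 (adjusted p = 0.112). Whether pigment cells in the positive gate took part was not tested.

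Endothelial genes, a check on vessel cells that could be sorted with their mural coat, had 5 of 51 that rose (9.80%, against 4.99% of all genes) and 4 that fell (7.84%, against 4.86%). Their median was 0.13, and with 1 library left out it ran from 0.0033 without acta2/foxc1b positive replicate 1 to 0.24 without acta2 negative replicate 1. It was 0.04 to 0.08 without acta2 negative replicate 2, acta2 positive replicate 2 or acta2/foxc1b negative replicate 1 or 2. Those that rose were ets1 (2.69, adjusted p = 0.000737), tspan18b (1.82, adjusted p = 0.00333) and aplnra (1.94, adjusted p = 0.0106), besides hey2 and dll4. The count that rose was 3 without acta2 negative replicate 1 or 2, acta2 positive replicate 3 or acta2/foxc1b positive replicate 2. Of these, ets1, a factor also of mesenchyme, had 1101, 1123, 1343, 1678 and 1566 in positive, against 109, 262 and 296 in negative libraries. Those that fell were the blood and endothelial factor genes lmo2 (-2.29, adjusted p = 0.00595) and tal1 (-2.54, adjusted p = 0.0139). They also included the lymphatic and neural gene prox1a (-1.93, adjusted p = 0.0156) and sox18 (-1.59, adjusted p = 0.0411). In turn, sox18 was not called without any of 9 of the 11 libraries, each left out alone (highest adjusted p = 0.123). The other 42 endothelial members tested were not called.

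Among the lists, those of eye, nervous system and blood held most of the genes that fell. Photoreceptor and retina genes had 27 of 37 that fell (73.0%, against 4.86% of all genes) and 0 that rose. Their median was -4.26 (-3.71 in the acta2 line and -5.06 in the acta2/foxc1b line). The cone opsin gene opn1lw2 had 42.2, 518, 69.2, 40.1 and 42.2 normalized read counts in positive, against 722, 5309 and 33436 in negative libraries (log2 fold change -6.42 ± 0.83, adjusted p = 0.000838). A further cone opsin gene, opn1mw1, had -6.09 (adjusted p = 0.00204), and the phototransduction and disc genes pde6h and prph2b had -5.33 (adjusted p = 0.00046) and -4.7 (adjusted p = 0.000737). Lens genes had 20 of 26 that fell (76.9%, against 4.86% of all genes) and 0 that rose (median -4.52). The gamma crystallin gene crygm2d1 had 0, 151, 1.05, 8.91 and 5.56 in positive, against 461, 1465 and 2337 in negative libraries (log2 fold change -7.27 ± 1.06, adjusted p = 0.00156). Its paralogs crygm2d3 (-6.98, adjusted p = 0.000524) and crygm2d7 (-6.81, adjusted p = 0.000433) belong to a family of near-identical copies, and the origin of their reads is uncertain. The beta crystallin gene cryba1b had 735, 2045, 451, 852 and 687 in positive, against 8170.2, 15656 and 44248 in negative libraries (log2 fold change -4.33 ± 0.47, adjusted p = 0.000383).

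Neural progenitor and glia genes had 21 of 32 that fell (65.6%, against 4.86% of all genes) and 0 that rose (median -2.99). The myelin gene mpz had 228, 132, 292, 80.2 and 11.1 normalized read counts in positive, against 1018, 4794 and 10667 in negative libraries (log2 fold change -5.72 ± 0.66, adjusted p = 0.000489). Myelin genes mag, cldnk and plp1b had -4.07 (adjusted p = 0.00134), -4.49 (adjusted p = 0.00127) and -3.76 (adjusted p = 0.00256). The radial glia gene gfap had -3.53 (adjusted p = 0.00343), and the progenitor factors sox3 and sox2 had -3.93 (adjusted p = 0.00093) and -3.75 (adjusted p = 0.00212). Neuron genes had 9 of 42 that fell (21.4%, against 4.86% of all genes) and 0 that rose, although their median was -2.36. In each line without overlap only 2 of the 42 were lower, where 5.13% of all genes were. With 1 library left out, 2 to 31 fell. The most fell without acta2/foxc1b negative replicate 2 and the fewest without acta2 negative replicate 3 or acta2/foxc1b positive replicate 2. Acta2/foxc1b negative replicate 2 held 3809 summed neuron counts, against 27447 to 103787 in the other negative libraries. The synaptic gene snap25b had 153, 503, 159, 256 and 287 in positive, against 339.9, 2793 and 5335 in negative libraries (log2 fold change -3.17 ± 0.63, adjusted p = 0.00821), and acta2 positive replicate 2 lay within the negative range. The calcium-binding gene pvalb8, used in hair cells and some neurons, had 0, 83.7, 3.15, 2.67 and 0 in positive, against 256, 639.8 and 1401 in negative libraries (log2 fold change -7.39 ± 0.94, adjusted p = 0.000737).

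Blood genes were likewise low in positive cells. Of 20 erythroid genes, 14 fell (70.0%, against 4.86% of all genes) and 1 rose (5.00%, against 4.99%), with a median of -3.29. Embryonic globin gene hbbe1.1 had 29.7, 11.6, 38.8, 5.35 and 0 normalized read counts in positive, against 288, 546 and 3130.2 in negative libraries (log2 fold change -6.47 ± 0.69, adjusted p = 0.000309), and shares near-identical paralogs. The erythroid factor gata1a had 0, 20.9, 7.34, 0.891 and 0 in positive, against 27.3, 171 and 197 in negative libraries (log2 fold change -5.22 ± 0.9, adjusted p = 0.00366), and the heme synthesis gene alas2 had -3.47 (adjusted p = 0.00256). The member that rose was rhag, an ammonium transporter relative (2.27, adjusted p = 0.00173). Of 33 leukocyte genes, 8 fell (24.2%, against 4.86% of all genes) and 1 rose (3.03%, against 4.99%), with a median of -1.58. With 1 library left out 4 to 11 fell. The most fell without acta2/foxc1b negative replicate 2 and the fewest without acta2 negative replicate 2 or acta2/foxc1b positive replicate 2. The lymphoid factor gene ikzf1 had 1.56, 39.5, 8.39, 6.24 and 0 in positive, against 96, 240.4 and 417 in negative libraries (log2 fold change -5.38 ± 0.79, adjusted p = 0.00156). The actin regulator coro1a had -3.12 (adjusted p = 0.00171) and the apolipoprotein gene apoeb -3.12 (adjusted p = 0.0072). The member that rose was lgals2a, a galectin (1.96, adjusted p = 0.0366; not called without any of 6 of the 11 libraries, each left out alone, highest adjusted p = 0.0773).

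Epidermis genes had a median of -2.54 (-1.27 in the acta2 line and -3.5 in the acta2/foxc1b line), and -1.71 without acta2/foxc1b negative replicate 2. In each line without overlap 5 of the 40 tested were lower, where 5.13% of all genes were. Of the 40, 14 fell and 1 rose, with 19 falling without acta2 positive replicate 2. The count was 3 without acta2 positive replicate 3 or either acta2/foxc1b positive library, 4 without acta2 positive replicate 1 and 6 without any acta2 negative library. The secretory gene agr2 had 641, 752, 549.7, 444 and 416 normalized read counts in positive, against 2623, 4702 and 9793 in negative libraries (log2 fold change -3.21 ± 0.3, adjusted p = 0.000157). The ionocyte factor foxi3b had -5.29 (adjusted p = 0.0166) and the calcium-binding gene icn -4.25 (adjusted p = 0.00967), with icn at 20018, 56109.9, 4776, 2448 and 2487 in positive, against 48274, 87831 and 759782 in negative libraries. Acta2 positive replicate 2, which held 171853 summed epidermis counts, lay within the negative range of icn. The member that rose was zgc:77517 (2.25, adjusted p = 0.00188). Liver, gut and pancreas genes had 4 of 44 that fell (9.09%, against 4.86% of all genes) and 0 that rose. Their median was -2.42 (-0.87 in the acta2 line and -3.93 in the acta2/foxc1b line), and 16 fell without acta2 positive replicate 2. Acta2/foxc1b negative replicate 2 held 2622355 summed counts of this list, against 13043 to 46363 in the other negative libraries, and without it the median was -1.6. The somatostatin genes sst1.1 and sst1.2 belong to endocrine and neural cells. The sst1.1 transcript had 42.2, 36, 21, 49.9 and 2.22 in positive, against 403, 3532 and 9684 in negative libraries (log2 fold change -7.14 ± 0.68, adjusted p = 0.000157), and sst1.2 had -6.91 (adjusted p = 0.00121). The bile acid binding gene fabp6 had -4.01 (adjusted p = 0.0102) and the intestinal factor gene cdx1b -3.37 (adjusted p = 0.0368; not called without any of 9 of the 11 libraries, each left out alone, highest adjusted p = 0.113). The ponzr5 gene, of a family of small cysteine-rich proteins, had 0, 130.2, 0, 8.91 and 0 in positive, against 168, 416 and 2106 in negative libraries (log2 fold change -6.8 ± 1.21, adjusted p = 0.00435).

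Of 47 cell cycle genes, 5 fell (10.6%, against 4.86% of all genes) and 0 rose (median -0.64). With array weights 30 fell. Leaving out 1 library gave from 0 to 10, the highest without acta2/foxc1b negative replicate 2 and 0 without any of 6 others. Among those that fell, the cyclin gene ccna2 had -1.52 (adjusted p = 0.0297) and was not called without any of 6 of the 11 libraries, each left out alone (highest adjusted p = 0.0776). The microtubule regulator gene stmn1a had -1.19 (adjusted p = 0.0314) and was not called without any of 7 of the 11 libraries, each left out alone (highest adjusted p = 0.0816). The replication clamp gene pcna had -1.19 (adjusted p = 0.0421) and was not called without any of 8 of the 11 libraries, each left out alone (highest adjusted p = 0.11). For dut, a nucleotide enzyme gene, the value was -1.74 (adjusted p = 0.0455; not called without any of 8 of the 11 libraries, each left out alone, highest adjusted p = 0.106). The helicase gene mcm7 had -1.94 (adjusted p = 0.0475; not called without any of 8 of the 11 libraries, each left out alone, highest adjusted p = 0.122). By library, pcna had 2349, 1744, 2271, 2509.6 and 1252 in positive, against 1661, 4982 and 8252 in negative libraries, with overlap. Of 53 dissociation and stress genes, 1 rose (1.89%, against 4.99% of all genes) and 2 fell (3.77%, against 4.86%). Without acta2/foxc1b negative replicate 2, 6 rose and 3 fell. The median of 0.15 turned negative without any of 3 libraries, to -0.07 at the lowest without acta2 negative replicate 1. The small heat shock gene hspb8, also a muscle chaperone, had 737, 366, 415, 824 and 1989 in positive, against 55.7, 147 and 379 in negative libraries (log2 fold change 2.55 ± 0.41, adjusted p = 0.0025), with overlap of a single library from each group. The chaperonin gene hspe1 had -1.38 (adjusted p = 0.0139) and myca -1.16 (adjusted p = 0.0428; not called without any of 8 of the 11 libraries, each left out alone, highest adjusted p = 0.129). Reads of mt-rnr2, a mitochondrial ribosomal RNA, made up 9.35 to 16.3% in acta2 positive and 3.44 to 6.02% in acta2/foxc1b positive libraries. Among negative libraries the share was 1.23 to 3.86% in the acta2 line and 4.52 to 7.10% in the acta2/foxc1b line. The heat shock gene hspa8 took the most reads of any gene in acta2 negative replicates 1 to 3 (3.80, 7.98 and 4.69%). It also did so in acta2/foxc1b negative replicate 2 (9.50%), and mt-rnr2 took the most in the other libraries. The part of these shares in the results was not tested.

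**Figure D4:**
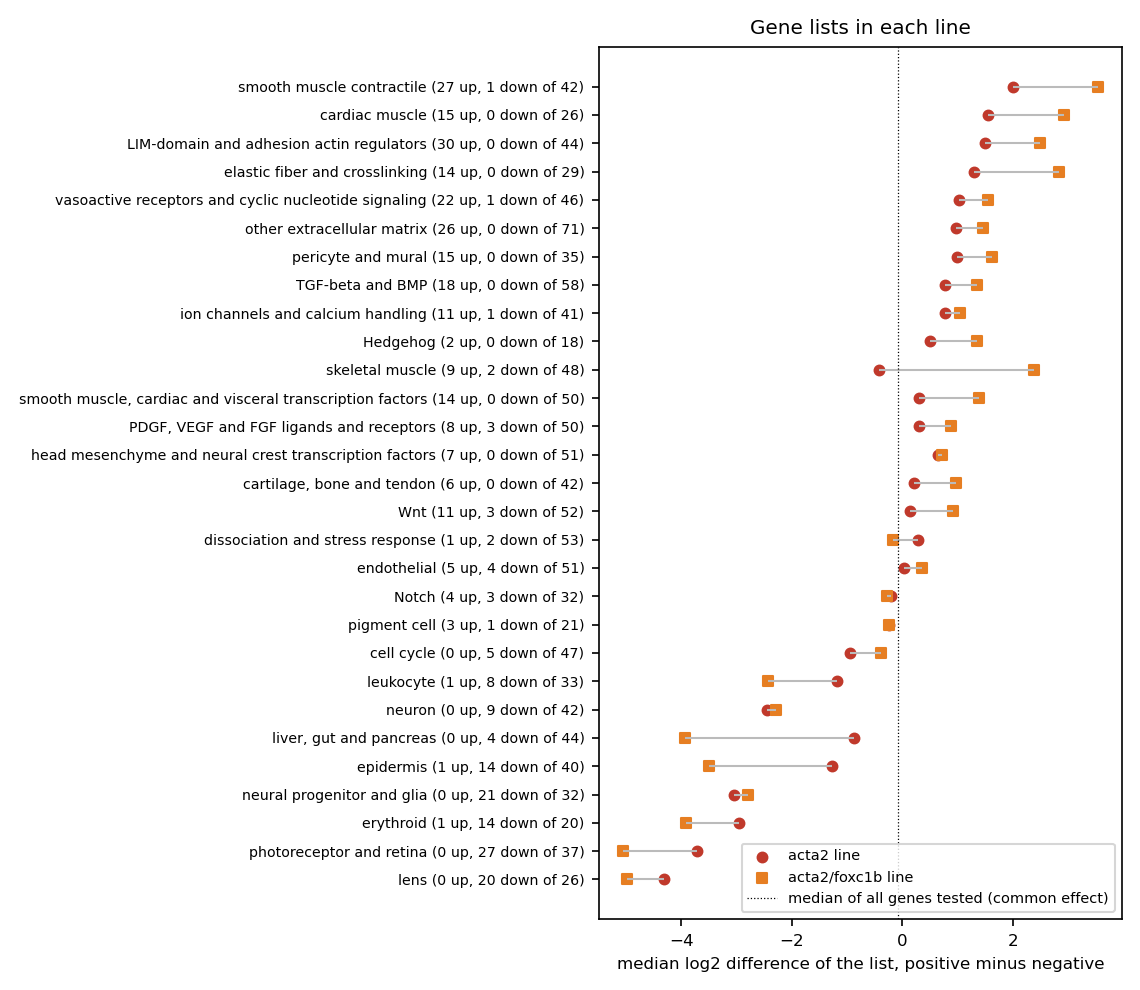
Median positive minus negative log2 difference over the tested members of each of 29 gene lists (x axis), drawn for the acta2 line and the acta2/foxc1b line, with the numbers called higher and lower in the row labels. Contractile, adhesion, elastic fiber and cardiac lists lie right of 0 in both lines, lens, photoreceptor and glia lists lie left of it, and the skeletal muscle list has a median of -0.42 in the acta2 line and 2.39 in the acta2/foxc1b line.

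Skeletal muscle genes had medians of opposite sign in the lines. Of 48 skeletal muscle genes, 9 rose (18.8%, against 4.99% of all genes) and 2 fell (4.17%, against 4.86%). Without acta2/foxc1b negative replicate 2, 4 fell. The count that rose was 3 without either acta2/foxc1b positive library, and 5 without acta2 negative replicate 1 or 3, acta2 positive replicate 1 or acta2/foxc1b negative replicate 1. Their median was -0.42 in the acta2 line and 2.39 in the acta2/foxc1b line. In the acta2/foxc1b line 37 were higher without overlap (15% of all genes), and in the acta2 line 6 were higher (14.9%) and 10 lower (15.6%). In 46 of the 48 the difference was larger in the acta2/foxc1b line, as it was in 50.5% of all genes, in 36 of 42 smooth muscle contractile and in 17 of 26 cardiac genes. Their summed level was 45614 to 82120 in acta2 positive libraries and 394700 and 773426 in acta2/foxc1b positive libraries, against 28248 to 80885 in negative libraries. The acta2 positive libraries therefore lay at the level of the negative ones, and the acta2/foxc1b positive libraries above it. The myosin light chain gene myl13 had 10493, 6189, 4263, 54689 and 65137 normalized read counts in positive, against 389, 1214 and 2324 in negative libraries (1.88 in the acta2 line and 6.57 in the acta2/foxc1b line, interaction 4.69 ± 0.67, adjusted p = 0.138). For tnnt2e, a troponin T gene, the values were 943, 451, 352, 5383 and 10092 in positive, against 60.2, 101 and 163 in negative libraries (1.93 in the acta2 line and 6.6 in the acta2/foxc1b line; interaction 4.67 ± 0.7, adjusted p = 0.138). The creatine kinase gene ckmb had 9919, 7162, 4755, 96734 and 171338 in positive, against 3634, 7291 and 13503 in negative libraries (-0.36 in the acta2 line and 4.45 in the acta2/foxc1b line; interaction 4.81 ± 0.8, adjusted p = 0.138). All of these were high in both acta2/foxc1b positive libraries. Nebulin, junctophilin and triad genes had the same shape, with interaction log2 differences of 3.28 for neb, 4.54 for jph2, 4.57 for ckmt2b, 5.24 for srl and 3.9 for tmem38a, none with an adjusted p under 0.05. In the settings that called any interaction, members of this list, 48 of 20884 genes tested, were among the calls. They were 7 of 14 with quantile normalization, 24 of 231 by DESeq2 and 20 of 70 with array weights. Without acta2/foxc1b negative replicate 2 they were 17 of 52. The other settings called 0 genes.

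The slow muscle genes tnnc1b and smyhc1 rose in the common fit (3.63, adjusted p = 0.0103, and 3.1, adjusted p = 0.0109). For tnnc1b the difference was 1.55 in the acta2 line and 6.24 in the acta2/foxc1b line, and for smyhc1 it was 1.45 in the acta2 line and 5.17 in the acta2/foxc1b line. The myogenic factor genes myog and myf5, which mark muscle precursors, fell in both lines. The myog transcript had 42.2, 138, 54.6, 149 and 98.9 normalized read counts in positive, against 339.9, 922 and 1237 in negative libraries (log2 fold change -3.24 ± 0.44, adjusted p = 0.00115), and myf5 had -2.57 (adjusted p = 0.00814). These 2 were the only members of the 48 in the skeletal muscle list that fell. In the acta2/foxc1b line their sign was opposite to that of the list median. Cardiac genes had 15 of 26 that rose (57.7%, against 4.99% of all genes) and 0 that fell, and 8 rose without acta2/foxc1b positive replicate 2. Their median was 2.39, with 1.55 in the acta2 line and 2.93 in the acta2/foxc1b line. Their summed level was 19282 to 38457 in acta2 positive libraries and 50275 and 121956 in acta2/foxc1b positive libraries, against 5624 to 17028 in negative libraries. Much of that sum came from hand2, which alone had 23319, 14248 and 9019.6 in the acta2 positive libraries. The cardiac myosin-binding protein gene mybpc3, chosen after its values were seen, had 3459, 1792, 1070.0, 21365 and 40149.8 in positive, against 164, 471 and 603 in negative libraries (log2 fold change 3.98 ± 0.74, adjusted p = 0.00545). Its difference was 1.95 in the acta2 line and 6.52 in the acta2/foxc1b line (interaction 4.57 ± 0.81, adjusted p = 0.148). The alpha-actinin gene actn2b, also chosen afterwards, had 1.31 in the acta2 line and 3.05 in the acta2/foxc1b line (common 2.08, adjusted p = 0.0421; not called without any of 7 of the 11 libraries, each left out alone, highest adjusted p = 0.136). Of 26 cardiac genes, 17 had a larger difference in the acta2/foxc1b line. The heart muscle genes named next were not among them, but the naming rule also took genes for being even between lines. Their evenness is therefore not a result about cardiac genes. The troponin gene tnnt2a (log2 fold change 3.21 ± 0.52, adjusted p = 0.00258) had 3.35 in the acta2 line and 3.04 in the acta2/foxc1b line. The natriuretic peptide gene nppa (log2 fold change 3.65 ± 0.66, adjusted p = 0.00459) had 3.76 in the acta2 line and 3.51 in the acta2/foxc1b line. The atrial light chain gene myl7 (log2 fold change 3.54 ± 0.65, adjusted p = 0.005) had 4.37 in the acta2 line and 2.51 in the acta2/foxc1b line. Summed smooth muscle contractile genes were 235719 to 454892 in acta2 positive and 384173 and 773186 in acta2/foxc1b positive libraries, against 40144 to 88311 in negative libraries. The part of striated muscle in the results was not tested.

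**Figure D5:**
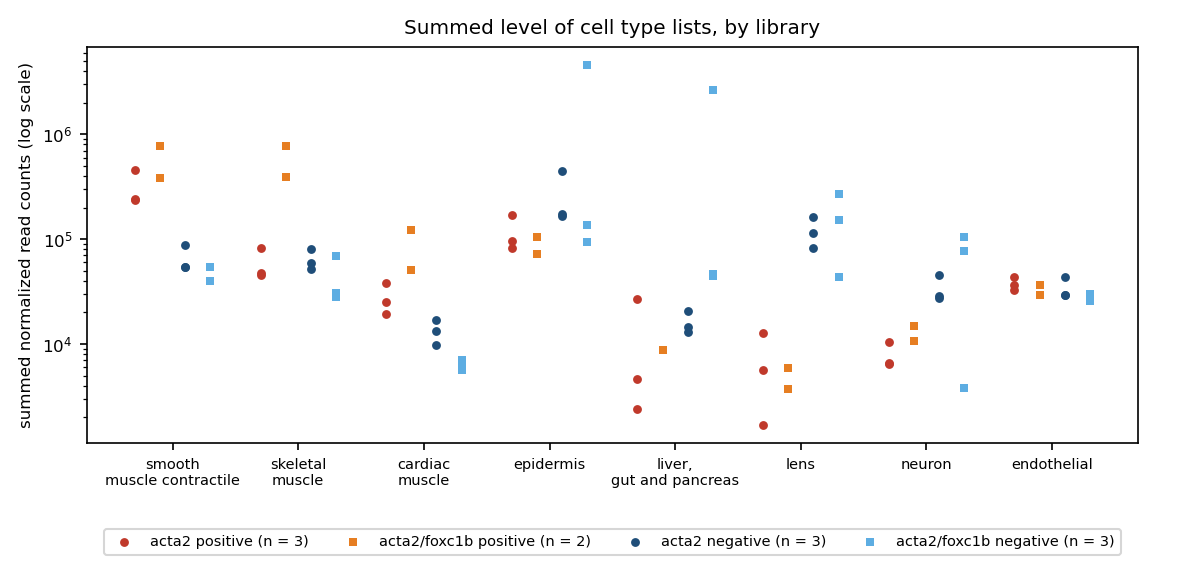
Summed normalized read counts of all matched members of 8 gene lists, tested or not (y axis, log scale), in each of the 11 libraries. Positive libraries are left of negative libraries and lines are told apart by marker. Smooth muscle contractile sums are higher in all 5 positive libraries than in the 6 negative ones, and skeletal muscle sums are high in the 2 acta2/foxc1b positive libraries.

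The authors' deposited table, which compares the sorts within each line, called 316 genes higher and 369 lower in both lines by its adjusted p, and 3 in opposite directions. Of those, 313 of 316 (99.1%) and 360 of 369 (97.6%) were also called in the common fit. They made up 30.0% of the 1043 genes that rose and 35.4% of the 1016 that fell in it.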

How the data were processed

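Per the labels' protocols, embryos were dissociated, cells were sorted by fluorescence into TRIzol, and cDNA primed with oligo dT was amplified (REPLI-g) before TruSeq adapters were added. Genome build GRCz11, featureCounts 1.5.2 and DESeq2 1.20.0 are named in the submitters' processing notes, beside CASAVA 1.8.2 and bcl2fastq 2.14. Neither an aligner nor an annotation is given in the sources used here. Amplified reads without molecular identifiers are not independent molecules.

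The deposited signal value of a gene in a library comes from its read count, which the authors scaled by a size factor, 1 scaling for the 11 libraries. All values were whole multiples of 1 step per library within a tolerance of 0.1 read, and 100% gave back whole reads. For each line the table deposited by the authors has a log2 fold change with its p-value, standard error score and test statistic, of which the adjusted p was used here.

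Because the values are normalized, limma-trend on log2(value + 1) replaced a count test as the main test. The fit had line and sort as terms, with genes at 10 or more in at least 5 libraries, robust settings off and two-sided tests. Genes were called at a Benjamini-Hochberg adjusted p below 0.05. Single-line fits and a line by sort interaction used the same settings. Checks on simulated data preceded the fits. Alternatives were other pseudocounts, filters and scalings, edgeR and DESeq2 on recovered reads, array weights, robust moderation, other treatments of line, a replicate block, and each library left out. DESeq2 1.42.0, edgeR 4.0.16 and limma 3.58.1 were run in R 4.3.3. Whether replicate numbers pair libraries was checked by correlating deviations from the group means.

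The members and the 29 gene lists (1216 symbols, 1176 matched to the table, 1117 tested) were chosen with earlier results of these data known. Lists are described by counts and medians, with no set test. Named by rule were the reporter genes, the 15 largest and 8 most negative fold changes among called, non-overlapping genes with a proper symbol and a mean of at least 100 in the higher group, up to 4 called members per list with the smallest adjusted p, 8 genes by interaction p, and the 6 most even genes with a log2 fold change of at least 3. These were 134 genes; a further 101, chiefly other list members, were chosen after their values were seen. Some genes that the rule named are not reported here. Promoter sequences were not used here.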

Additional observations from a re-analysis of the deposited data

Results flagged for a closer look

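The homeobox gene tlx2, chosen after its values were seen, lay on opposite sides of the sort in the 2 lines. It had 149, 267, 178, 584 and 427 normalized read counts in positive libraries, against 275, 761 and 1467 in negative libraries, with a common log2 fold change of -1.28 ± 0.53 that did not pass the limma test (adjusted p = 0.15). In the acta2 line every positive library was below every negative one, and in the acta2/foxc1b line every positive library was above every negative one (-2.72 in the acta2 line and 0.53 in the acta2/foxc1b line). The interaction of 3.24 was tested and did not pass (adjusted p = 0.148). No group held more than 3 libraries, so single outlying libraries within a group were not tested for.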

How the results depend on the processing

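Counts of genes that rose or fell stayed within 1.5 times the reported 1043 and 1016 with pseudocounts of 0.5 or 10, other filters, quantile normalization, edgeR, robust moderation and other treatments of line. They were 1702 and 1960 by DESeq2 and 2172 and 2606 with array weights. Without both libraries that stood apart, 2042 fell. With 1 library left out, 546 to 1646 rose and 560 to 1908 fell. Whether replicate numbers pair the libraries could not be decided, because deviations from the means of so few libraries are not independent. Deviations of same-numbered libraries correlated at 0.013, -0.022 and -0.010 in the acta2 line and 0.144 and 0.052 in the acta2/foxc1b line. Those of differently numbered libraries ran from -0.092 to 0.131 in the acta2 line and from -0.144 to 0.054 in the acta2/foxc1b line. No shared source is labelled. With a replicate block, 548 rose (539 of them among the 1043) and 615 fell (559 among the 1016). The interaction was called for 14 genes with quantile normalization, 231 by DESeq2, 70 with array weights and 0 to 52 with 1 library left out. The acta2 line alone gave 1441 calls, 2941 by DESeq2, 2924 with array weights and 285 to 1355 with 1 library left out. The acta2/foxc1b line alone gave 6 calls, 11 with a pseudocount of 10 or no filter, 87 with quantile normalization, 0 by edgeR, 1692 by DESeq2, 1251 with array weights and 0 to 774 with 1 library left out. The cause of these moves was not tested.

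Of 129 called genes named by rule, 101 were called under every alternative and 111 with any 1 library left out. Of 95 called genes chosen afterwards, these were 60 and 67. None of these called genes changed sign. The sign of foxc1b turned with array weights (-0.39), the replicate block (-0.13) and without any of 4 acta2/foxc1b libraries, which were negative replicates 1 (-0.07) and 3 (-0.13) and positive replicates 1 (-0.05) and 2 (-0.52). Its range with 1 library left out was -0.52 to 0.50. Quantile normalization moved the median over all genes to 0.02, against -0.09. Depth limited genes near 0 in a group, and a fold change of such a gene depends on the pseudocount.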
